A study of Homo sapiens with 8 samples.

Results

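The genes described here code for the cytosolic factors that start and extend protein chains on the ribosome. Members were the protein-coding genes of the deposited tables whose symbol begins with EIF or EEF and a digit, other than the 4 kinases EIF2AK1 to EIF2AK4, EIF2S1 and EIF2A. This rule found 63 genes, of which 60 were in the tables of both rounds, among 45341 genes that the rounds share. With a filter on low levels, 52 of the 63 could be tested, among 12696 genes in all.

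The cells were MDA-MB-231, a long-established line from a human triple-negative breast cancer, and their polyadenylated RNA was sequenced. Cells were incubated for 24 h with 1-SO, (5-oxo-2-dibenzothienylmethyl)triphenylphosphonium, with 1-S, (2-dibenzothienylmethyl)triphenylphosphonium, which lacks the oxo group, or with vehicle. Each compound was used at 10 µM and the vehicle was 1% DMSO. One plate of each round was then exposed to UV-A for 30 min (8 bulbs, 325 to 375 nm) and its partner plate stayed dark, so light and plate cannot be told apart. Round 1 (passage 8) held 1-SO, round 2 (passage 32 to 34) held 1-S, and each round held its own vehicle, so that a round had 4 libraries: vehicle and compound, each kept dark or irradiated. Each vehicle group thus had n = 2 libraries, 1 per round, and each compound group n = 1, and compound, round and passage cannot be told apart. Nothing says that libraries came from separate cultures beyond the round, so p-values measure only the spread between these libraries. The libraries held 15.8 to 22.6 M counted reads. Mesenchymal markers were present (VIM at 219 to 317 FPKM, fragments per kilobase of gene and per M reads) and the hormone receptors ESR1 and PGR and the epithelial CDH1 were near 0 (at most 0.14 FPKM). ERBB2 and EPCAM, listed as low in this line, stood at 9.78 to 29.2 and 2.25 to 5.57 FPKM. Of the 5 luminal markers KRT19 stood at 106 to 250.4 FPKM, XBP1 at 27.9 to 79.6, GATA3 at 2.46 to 3.47, FOXA1 at 0.093 to 2.08 and TFF1 at 0.163 to 1.63. The leukocyte markers PTPRC and CD3E stood at most at 0.116 FPKM. Of the fibroblast markers DCN was at 0, COL1A2 at most at 0.062, PDGFRB at 0.709 to 1.22 and COL1A1 at 1.45 to 7.09 FPKM.

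Protein synthesis begins when eIF2 brings the initiator tRNA to the small ribosomal subunit, which eIF3, eIF1 and eIF1A hold open for scanning, and eIF2B recharges eIF2 with GTP. The complex eIF4F, made of the cap-binding eIF4E, the scaffold eIF4G and the helicase eIF4A, loads this subunit onto capped mRNA, and the 4E-binding proteins withhold eIF4E from it. eIF5 triggers GTP hydrolysis at the start codon, eIF5B joins the large subunit, and eEF1A and eEF2 then drive elongation, which the eEF2 kinase slows. Many mRNAs of this machinery begin with a C followed by a run of pyrimidines, the terminal oligopyrimidine (TOP) motif through which mTORC1 and LARP1 control their translation and stability.

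Among the 63 members, 5 were grouped under scanning by symbol, among them EIF1AD, which is only like eIF1A in a domain. Another 9 belong to eIF2, eIF2B or the related EIF2D, 15 to eIF3, and 12 to eIF4F, its helpers and relatives. A further 4 repress cap binding and 3 act at subunit joining or later. Another 10, EEF1E1 among them, were grouped as elongation factors by symbol, and 3 modify elongation factors. The remaining 2 are readthrough genes (EEF1AKMT4-ECE2 and EEF1E1-BLOC1S5). The 11 members that were not tested are these 2, EEF1AKMT4, EIF1AY, EIF2S3L, EIF4E1B, EIF4E3, EIF4EBP3, EIF5AL1, EEF1G and a second identifier of EIF3L in round 1. EIF4E3, a cap-binding protein of the eIF4E family, stood at 0.529 to 0.958 FPKM. EIF1AY, EIF4E1B and EEF1G were listed at 0 in every library, where 3 reads, the limit that a count of 0 allows, correspond to 0.133 to 0.19 reads per M reads.

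Some of these low values concern genes that dividing cells use heavily. EEF1G, a subunit of the exchange factor eEF1B, lay inside another protein-coding model on the same strand, and EIF4A1, the main eIF4A helicase, lay inside SENP3-EIF4A1. EIF4A1 stood at 2.79 to 4.56 FPKM in round 1 and 0.775 to 1.89 in round 2, against 79.7 to 88.3 and 56.8 to 76.5 for its paralogue EIF4A2. EIF3L, an eIF3 subunit, stood at 0.297 to 0.671 FPKM in round 1, whose table has 2 overlapping entries of that name, and at 25.8 to 29.6 in round 2. EIF3C and EIF3CL are near-identical copies, and EIF5A and EEF1A1 have close relatives in the genome. Levels and changes of these genes are uncertain, and the part of overlapping models in them was not tested. The labels do not say if strand was used in counting, so reads of overlapping antisense genes cannot be told apart.

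The members took 2.10 to 2.56% of all counted reads, and EEF1A1, the elongation factor that brings aminoacyl-tRNA to the ribosome, took 0.922 to 1.30%. In round 1 the members' share was 2.15% in vehicle dark, 2.15% in vehicle UV-A, 2.10% in 1-SO dark and 2.56% in 1-SO UV-A. In round 2 it was 2.17%, 2.17%, 2.21% in 1-S dark and 2.48% in 1-S UV-A. The irradiated compound library was the highest of its round in both rounds. EEF1A1 itself stood at 2124, 2209, 2077 and 2922 FPKM in round 1 and at 1773, 1688, 1811 and 2106 in round 2, in the same order. Its fitted log2 fold change was 0.34 ± 0.37 (SE) for 1-SO UV-A and 0.24 ± 0.37 for 1-S UV-A against vehicle UV-A, with edgeR adjusted p values of 0.62 and 0.67. These differences did not exceed the spread estimated for so abundant a gene.

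**Figure D1:**
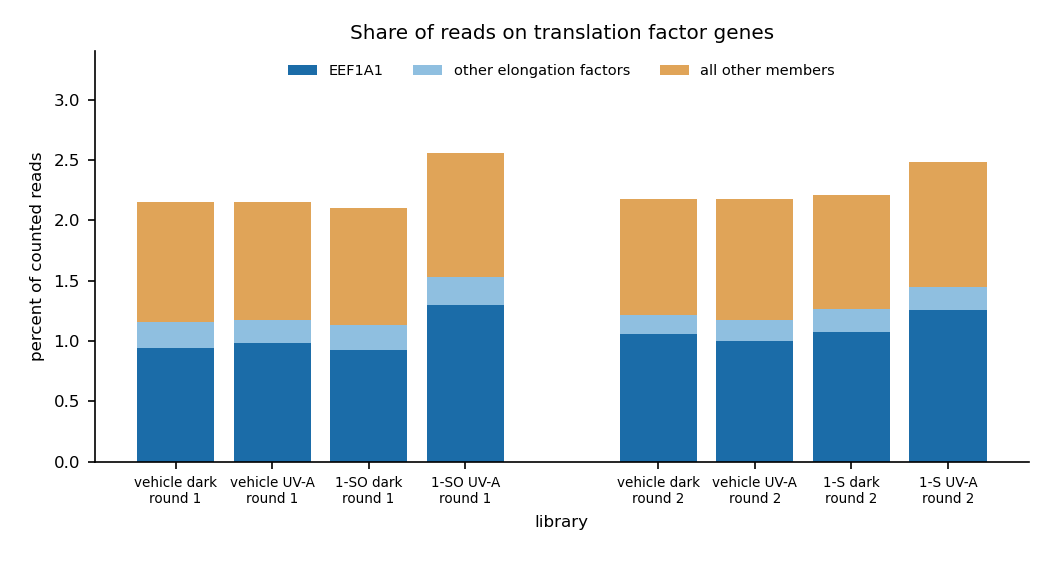
Percent of counted reads (vertical axis, from 0) on EEF1A1, on the other elongation factors and on all other members, stacked for each of the 8 libraries. The whole bar reaches 2.56% in 1-SO UV-A and 2.48% in 1-S UV-A, the highest of their rounds.

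The TOP motif was sought at every annotated start of each gene, in RefSeq promoter sequence of GRCh38.p14. It was taken as a C at the start base followed by at least 4 pyrimidines (C or T). A gene with several annotated starts counted if any of them had the motif, as with EEF1B2, which also has a start without it. Of the 52 tested members 41 matched the sequence table, and 11 of these, 26.8%, had such a start, against 7.57% of 8823 protein-coding genes tested. They were EEF1A1, EEF1B2, EEF2, EIF2D, EIF2S3, EIF3D, EIF3F, EIF3K, EIF3M, EIF4A2 and EIF4B. The members that did not match, and so were not examined, were EEF1A2, EEF1D, EEF2KMT, EIF2S2, EIF3A, EIF3CL, EIF3E, EIF3G, EIF3H, EIF3L and EIF4EBP1. The next lines print 10 bases before the annotated start and 20 from it for 4 members with this start and for 4 without it that changed with 1-S. Capitals mark the pyrimidine run, or the start base alone where the run is missing.
EEF1A1 (chr6:73521013-73521042, minus strand): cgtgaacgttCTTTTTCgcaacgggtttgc
EEF2 (chr19:3985444-3985473, minus strand): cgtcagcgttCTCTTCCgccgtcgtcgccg
EIF2S3 (chrX:24054946-24054975, plus strand): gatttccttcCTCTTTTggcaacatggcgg
EIF4B (chr12:53006446-53006475, plus strand): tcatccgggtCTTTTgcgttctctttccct
EIF1B (chr3:40309697-40309726, plus strand): cattttgtgcGagaagccgcagcgccgcct
EIF1AD (chr11:66002138-66002167, minus strand): cagcgccggaAgtacggttttcggagggat
EIF2B3 (chr1:44986576-44986605, minus strand): gctgtcagtcAgaggcggcgtggagatcgc
EIF4EBP2 (chr10:70404135-70404164, plus strand): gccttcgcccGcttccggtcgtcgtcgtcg
The first 4 begin with 5 to 7 pyrimidines and the other 4 with a purine. In the windows from 250 bases before to 50 bases after each start, the letters TGATGCAA, a form of the composite site of CHOP and ATF4, on either strand, were in 0 of the 41 members, against 0.714% of the protein-coding genes tested. At so low a share a count of 0 in 41 genes cannot set the members apart from other genes. EIF4EBP1 was not among the 41.

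UV-A in vehicle cells gave the light response without compound. No member passed the test, with edgeR or with DESeq2 or limma, and 0% of all genes were called. One member had an unadjusted p under 0.05 in edgeR. This was EIF4A1, with counts of 92 and 118 in the dark and light of round 1 and 93 and 218 in round 2, a fitted log2 change of 0.93 ± 0.28 and an edgeR adjusted p of 0.75. The rounds moved apart. In round 1 40 of the 52 members lay lower in the UV-A library than in the dark one, with a median log2 ratio of -0.10, and in round 2 39 lay higher, with a median of 0.05. Over all genes tested the median ratio was 0.00 in both rounds.

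EEF2KMT, the methyltransferase of eEF2, was the member furthest apart between rounds, with log2 ratios of light to dark of -0.37 and 0.86 and 100 to 202 counts in the vehicle libraries. EIF5A and EIF4EBP1, which are far more abundant, came next. EIF4EBP1, the 4E-binding protein that mTORC1 phosphorylates, stood at 109 FPKM in vehicle dark and 70.6 in vehicle UV-A of round 1, and at 77.6 and 81.1 in round 2. EIF5A, the hypusine-bearing factor that helps ribosomes past difficult peptide bonds, stood at 317 and 216 FPKM in round 1 and at 97.4 and 124 in round 2. The log2 ratios of light to dark were -0.70 and 0.08 for EIF4EBP1 and -0.62 and 0.36 for EIF5A. In both genes the irradiated vehicle library of round 1 lay below its dark partner while that of round 2 lay above. Results that rest on a single vehicle library are given below with and without it.

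The comparison of 1-SO with vehicle, both kept dark, left the members closest together. None passed the test in edgeR, DESeq2 or limma, 0 had an unadjusted p under 0.05 in edgeR, and 0% of all genes were called. The ratios of the 1-SO dark to the vehicle dark library of round 1 ranged from -0.33 to 0.44 on the log2 scale, with an SD of 0.13 over members against 0.30 over all genes. The scanning factor EIF1, for example, stood at 245 FPKM in vehicle dark and 249 in 1-SO dark. EIF4EBP2, a second 4E-binding protein, stood at 30.3 and 30.4. Here and below, the SD over all genes was not matched to the levels of the members, so a smaller SD does not show steadier genes.

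1-SO with UV-A was compared with vehicle under UV-A, both irradiated, the pair that asks what the sulfoxide does under light. Of the 52 members 2 rose and 1 fell, 5.77% in all, against 11.5% of all genes tested. The higher ones were 4.47% of all genes and the lower ones 7.05%. The median fitted log2 change of the members was 0.04. The ratios of the libraries spread by an SD of 0.34 over members against 0.55 over all genes.

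EIF1B is a close relative of the scanning factor eIF1. Its FPKM in round 1 was 47.2 and 45.9 in the dark and irradiated vehicle libraries, and 49.5 and 82.1 in those of 1-SO. The irradiated 1-SO library was alone in being high. The fitted log2 change was 0.68 ± 0.19, 1.61-fold, with an edgeR adjusted p of 0.018, and the ratio to the vehicle UV-A library of round 1 was 0.76. EIF2B3, the gamma subunit of the eIF2B exchange factor, went the other way. It stood at 37.3, 33.7, 35.6 and 22.2 FPKM in the same order, with a fitted log2 change of -0.76 ± 0.20 and an edgeR adjusted p of 0.014. Its 3 other libraries lay within 33.7 to 37.3 FPKM. The other 4 subunits of eIF2B, EIF2B1, EIF2B2, EIF2B4 and EIF2B5, had fitted log2 changes from -0.23 to 0.14 and did not pass.

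EIF4EBP1 was the second member called higher, at 109, 70.6, 98.1 and 137 FPKM, with a fitted log2 change of 0.67 ± 0.21 and an edgeR adjusted p of 0.034. This call rested on the irradiated vehicle library of round 1, the lowest of the 4. Without that library the fit gave 0.10. With the median-of-ratios factors 1 member passed as higher and 1 as lower, since EIF4EBP1 then had an edgeR adjusted p of 0.053. EIF4EBP2 stood at 30.3, 28.7, 30.4 and 28.4 FPKM, with a fitted log2 change of -0.14 ± 0.19.

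A further 8 members did not pass but had 95% intervals that leave out 0. The share of all genes with such intervals is not given here, and 11.5% of all genes passed after adjustment. The 8 are therefore not set apart from other genes. EIF1, the scanning factor that guards start codon choice, stood at 245, 230, 249 and 377 FPKM (fitted log2 change 0.55, 95% interval 0.09 to 1.01, edgeR adjusted p of 0.12). EIF2S2, the beta subunit of eIF2, stood at 119, 114, 121 and 180 FPKM (0.54, interval 0.13 to 0.95, edgeR adjusted p of 0.078). In both genes the irradiated 1-SO library was again the highest of its round. EIF4G1, the main eIF4G scaffold, stood at 218, 232, 208 and 175 FPKM (-0.51, interval -1.01 to -0.02, edgeR adjusted p of 0.18), the lowest of its round. Below 0 as well lay EIF5A (-0.52, interval -1.01 to -0.03), the eEF2 kinase EEF2K (-0.48, interval -0.90 to -0.05) and EIF3B (-0.43, interval -0.86 to -0.0044). Above 0 lay EIF5A2 (0.54, interval 0.13 to 0.95) and EIF3L (0.82, interval 0.13 to 1.51), the latter on counts of 18 to 48 in round 1. The 14 tested eIF3 genes had no call, with a range of -0.55 to 0.82 and a median of 0.08. The cap-binding protein EIF4E stood at 6.94, 7.87, 7.54 and 6.34 FPKM, with a fitted log2 change of -0.37 ± 0.18. EEF2, the translocase of elongation, stood at 364, 366, 345 and 471 FPKM, with 0.26 ± 0.24.

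**Figure D2:**
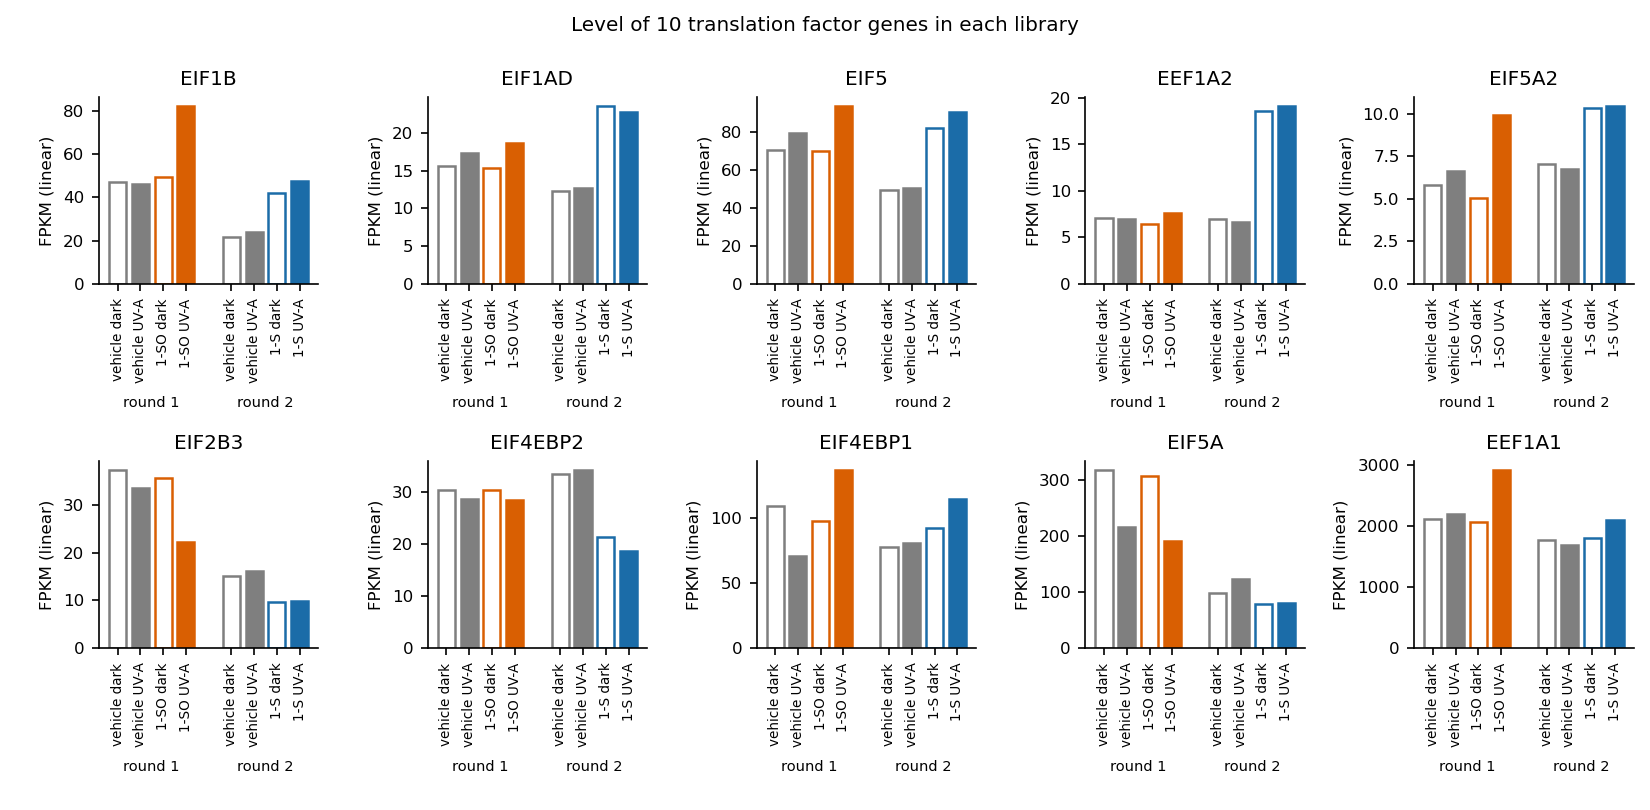
FPKM (vertical axes, linear, from 0) of 10 members in each of the 8 libraries. Open bars are dark and filled bars UV-A libraries, in grey for vehicle, orange for 1-SO and blue for 1-S. EIF1B, EIF5A2 and EIF2B3 set the 1-SO UV-A library apart in round 1 and both 1-S libraries apart in round 2, while EEF1A2 and EIF4EBP2 do so in round 2.

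UV-A within cells holding 1-SO compared the 2 libraries of that compound. It called 2 members higher and 2 lower, against 14.8% of all genes tested (5.58% higher and 9.21% lower). EIF5A2, the second eIF5A gene, stood at 5.06 FPKM in 1-SO dark and 9.92 in 1-SO UV-A, a log2 change of 0.85 ± 0.22 with an edgeR adjusted p of 0.0087. EIF5A stood at 307 and 191 FPKM in these libraries, a log2 change of -0.81 ± 0.25 with an edgeR adjusted p of 0.028. The 2 eIF5A genes thus moved in opposite directions. The vehicle libraries of round 1 held EIF5A at 317 FPKM in the dark and 216 under UV-A, so it was lower under light there as well. EIF5A2 stood at 5.81 and 6.64 in them. EIF1B (0.60 ± 0.20, edgeR adjusted p of 0.045) and EIF2B3 (-0.81 ± 0.21, edgeR adjusted p of 0.01) completed the calls. With the median-of-ratios factors EIF1B had an edgeR adjusted p of 0.055, which left 1 call higher and 2 lower.

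Whether light acted otherwise in 1-SO cells than in vehicle cells was tested as an interaction. No member passed, against 4.37% of all genes (1.47% higher and 2.9% lower), and DESeq2 and limma called 0 members as well. In edgeR 5 members had an unadjusted p under 0.05, a count whose share over all genes is not given here. Of these differences, those with the lowest p were 0.81 ± 0.27 for EIF5A2 (edgeR adjusted p of 0.086) and -0.75 ± 0.26 for EIF2B3 (0.11). For EIF1B the difference was 0.56 ± 0.25, for EIF4EBP1 0.66 ± 0.27 and for EIF5A -0.68 ± 0.31, with edgeR adjusted p values of 0.24, 0.18 and 0.25. A response of these genes to light that is particular to 1-SO was therefore not shown.

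The next comparison set 1-S against vehicle, both kept dark, and asks what the sulfide did without light. Of the 52 members 6 rose and 7 fell, 25% in all, against 30.9% of all genes tested, with 15.9% higher and 15% lower. The median fitted log2 change of the members was -0.11. The ratios of the libraries spread by an SD of 0.49 over members against 0.81 over all genes.

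The member with the largest rise was EEF1A2 (chr20:63488013-63499315, GRCh38), the eEF1A form known from neurons and muscle and from some tumours. Its FPKM in round 2 was 6.91 and 6.67 in the dark and irradiated vehicle libraries, and 18.6 and 19.1 in those of 1-S. The 2 vehicle libraries and the 2 1-S libraries did not overlap. How many of all genes were separated in this way was not counted, and a fit of round 2 alone called 60.1% of all genes for 1-S. In round 1 all 4 libraries lay between 6.47 and 7.57 FPKM. The fitted log2 change in the dark was 1.38 ± 0.25, 2.60-fold, with an edgeR adjusted p of 0.00012. Its paralogue EEF1A1 had a fitted log2 change of 0.00 ± 0.37 in this comparison. EEF1A2 remained the minor form, since EEF1A1 stood at 1688 to 2106 FPKM in the same libraries.

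The genes grouped under scanning were split. EIF1AD, a nuclear protein with an eIF1A-like domain, stood at 12.3, 12.7, 23.6 and 22.8 FPKM in round 2 and rose by 0.90 ± 0.19 on the log2 scale in the dark, with an edgeR adjusted p of 0.00059. EIF1B stood at 21.4, 24.1, 41.8 and 47.5 FPKM and rose by 0.85 ± 0.19, with an edgeR adjusted p of 0.0013. EIF1AX, the eIF1A gene of the X chromosome, stood at 25.3, 24.9, 16.3 and 18.6 FPKM and fell by 0.73 on the log2 scale (SE 0.18), with an edgeR adjusted p of 0.0037. In each of the 3 genes the 1-S libraries lay on one side of both vehicle libraries, a separation whose share over all genes was not counted. EIF1 stood at 159, 177, 237 and 278 FPKM, with a fitted log2 change of 0.45 ± 0.22 that did not pass in the dark.

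Among the genes of eIF2, eIF2B and EIF2D, EIF2B3 stood at 15.2, 16.1, 9.73 and 9.96 FPKM, with -0.76 ± 0.20 in the dark and an edgeR adjusted p of 0.0056. EIF2S3, the gamma subunit of eIF2, stood at 35.4, 32.6, 24.2 and 24.0 FPKM, with -0.65 ± 0.18 and an edgeR adjusted p of 0.0085. EIF2S2, its partner subunit, stood at 114, 114, 162 and 180 FPKM, with 0.43 ± 0.20 and an edgeR adjusted p of 0.1. These 2 subunits of one complex therefore lay on opposite sides of their vehicle libraries, though only EIF2S3 passed. EIF2B5, the catalytic subunit of eIF2B, stood at 15.2, 15.8, 12.7 and 13.8 FPKM, with -0.32 ± 0.18, and EIF2D at 7.20, 6.94, 6.37 and 6.94 FPKM, with -0.27 ± 0.19.

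EIF5, the GTPase activator of eIF2, rose by 0.70 ± 0.21 on the log2 scale in the dark, with an edgeR adjusted p of 0.011. It stood at 49.6, 50.2, 81.9 and 90.5 FPKM. Of the other late factors, EIF5B stood at 26.8, 28.4, 25.7 and 25.5 FPKM and the ribosome anti-association factor EIF6 at 66.2, 73.4, 54.4 and 55.4, with fitted log2 changes of -0.14 ± 0.19 and -0.48 ± 0.20 in the dark. Neither passed.

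The cap-binding group was split as well. EIF4EBP2 stood at 33.5, 34.2, 21.3 and 18.6 FPKM and fell by 0.74 on the log2 scale (SE 0.19), with an edgeR adjusted p of 0.0038. EIF4EBP1, at 77.6, 81.1, 92.4 and 114 FPKM, had a fitted change of 0.01 ± 0.21 in the dark. EIF4H, a helper of eIF4A, stood at 155, 157, 116 and 126 FPKM, with -0.57 ± 0.22 and an edgeR adjusted p of 0.0498, and EIF4A3, the eIF4A-like helicase of the exon junction complex, at 27.9, 34.5, 48.4 and 48.7 FPKM, with 0.58 ± 0.20 and an edgeR adjusted p of 0.031. Without the vehicle dark library of round 2 the fit gave -0.89 for EIF4H and 0.09 for EIF4A3. The remaining genes grouped with eIF4F by symbol did not pass. EIF4G1 stood at 123, 135, 94.6 and 92.8 FPKM (-0.45 ± 0.24), EIF4G2 at 161, 170, 117 and 129 (-0.51 ± 0.25) and EIF4G3 at 20.4, 20.5, 17.0 and 18.0 (-0.28 ± 0.18). All 3 EIF4G genes were thus lower in both 1-S libraries than in both vehicle libraries. How many of all genes were separated in this way was not counted. The fit of round 2 alone, given below, called 60.1% of all genes for 1-S, so the pattern does not set these 3 apart. EIF4E stood at 6.26, 6.39, 5.17 and 5.83 FPKM and EIF4B, the cofactor of eIF4A, at 44.3, 42.7, 39.6 and 41.7.

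Of the 14 tested eIF3 genes only EIF3B, a subunit of the eIF3 core, was called in the dark. It stood at 42.5, 45.3, 29.3 and 33.0 FPKM, with -0.68 ± 0.21 and an edgeR adjusted p of 0.015. The largest subunit, EIF3A, stood at 92.6, 93.0, 96.2 and 97.2 FPKM, with a fitted change of -0.00 ± 0.22. Among elongation factors, EIF5A2 rose by 0.55 ± 0.20 (7.06, 6.76, 10.4 and 10.5 FPKM, edgeR adjusted p of 0.034) and EIF5A fell by 0.63 (97.4, 124, 77.7 and 80.0 FPKM, SE 0.24, edgeR adjusted p of 0.047). The EIF5A value depended on the vehicle libraries, at -1.35 without the vehicle dark library of round 2 and at -0.37 without any one of the other 3. EEF2 stood at 243, 250, 304 and 329 FPKM, with 0.25 ± 0.24, and its kinase EEF2K at 5.14, 5.15, 4.78 and 4.24.

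**Figure D3:**
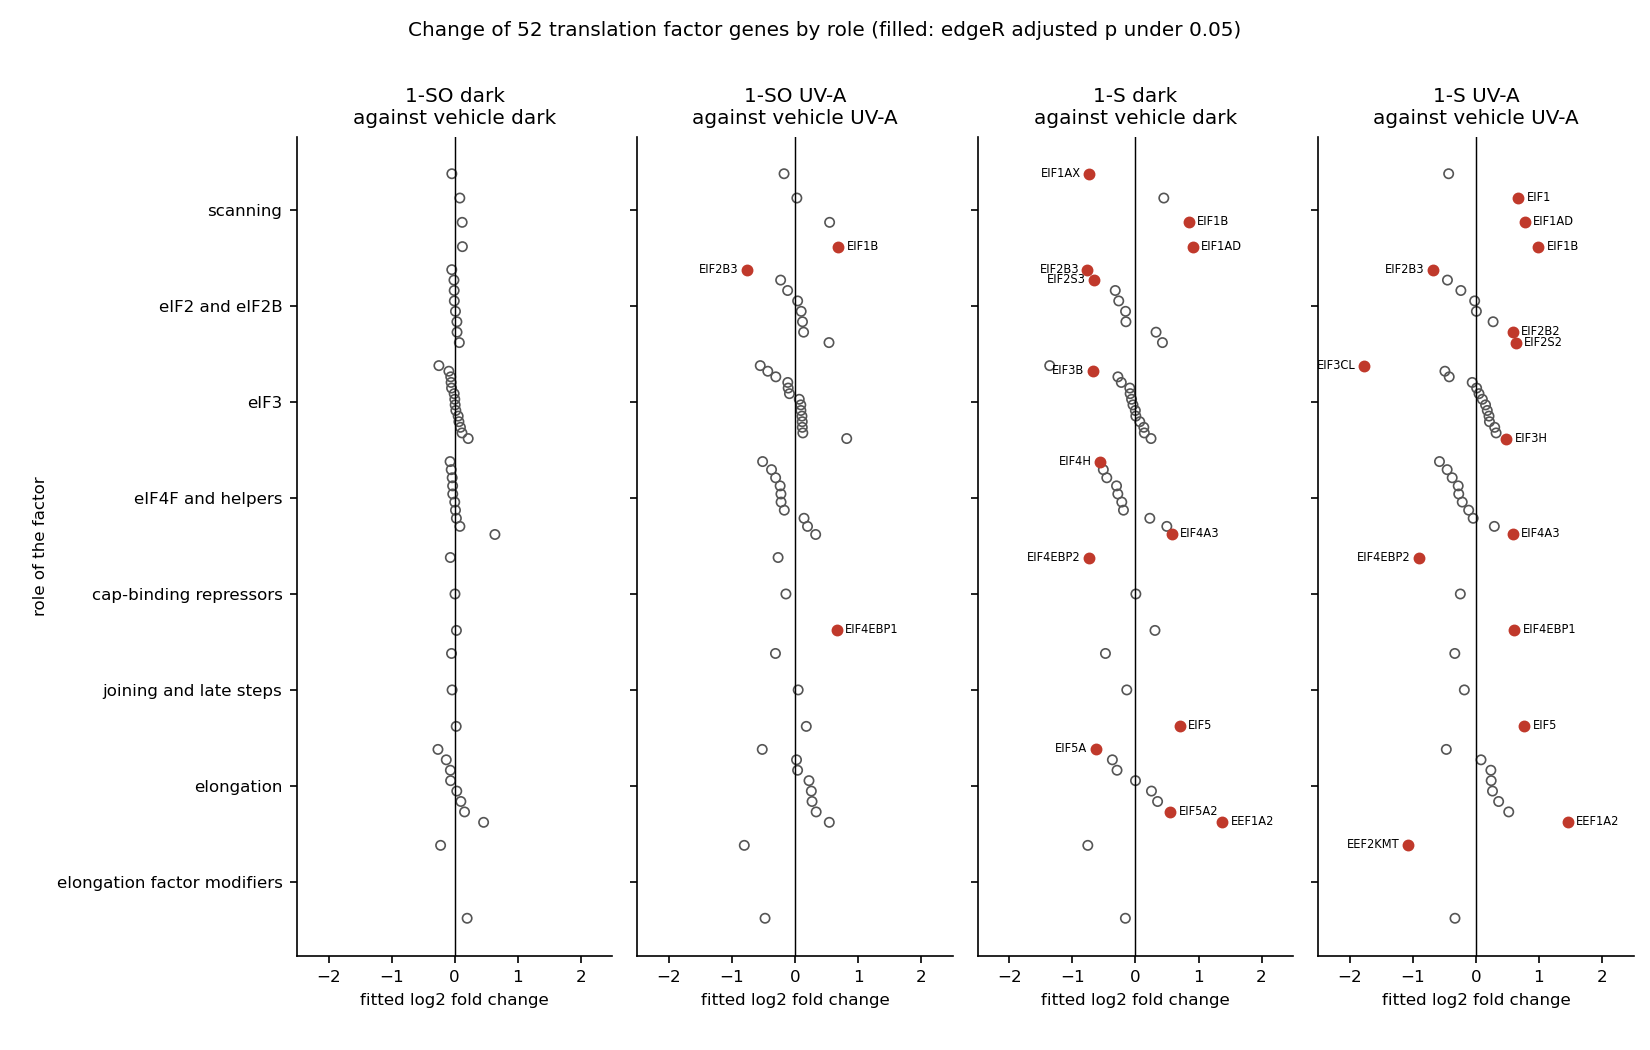
Fitted log2 fold change (horizontal axes) of the 52 tested members in 4 comparisons, with 1 point per gene in rows by role. Filled points have an edgeR adjusted p under 0.05 and carry their symbol. No point is filled for 1-SO dark, 3 for 1-SO UV-A, 13 for 1-S dark and 14 for 1-S UV-A.

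1-S with UV-A was compared with vehicle under UV-A. Here 10 members rose and 4 fell, 26.9% in all, against 27.5% of all genes tested, with 13.8% higher and 13.7% lower. The median of the members was 0.03. Of the 14 genes called, 7 were called in the same direction in the dark, 50% of this list and 53.8% of the dark list. Both comparisons draw on the same fitted vehicle response, and the overlap of these calls over all genes was not counted. The 7 were EEF1A2, EIF1B, EIF1AD, EIF5 and EIF4A3, all higher, and EIF4EBP2 and EIF2B3, both lower.

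EEF1A2 was higher by 1.46 ± 0.25 on the log2 scale, 2.75-fold, with an edgeR adjusted p of 6.5e-05. Of the 4 tested genes grouped under scanning 3 rose, at 0.99 ± 0.19 for EIF1B, 0.77 ± 0.19 for EIF1AD and 0.67 ± 0.22 for EIF1. Their edgeR adjusted p values were 0.00025, 0.0029 and 0.024, and the fourth, EIF1AX, had -0.43 ± 0.18 and did not pass. EIF5 rose by 0.77 ± 0.21, with an edgeR adjusted p of 0.0069, and EIF2S2 by 0.63 ± 0.20, with an edgeR adjusted p of 0.017. EIF2B2, the beta subunit of eIF2B, rose by 0.58 ± 0.20 (6.41, 6.57, 8.41 and 10.1 FPKM, edgeR adjusted p of 0.029), while EIF2B3 fell by 0.68 (SE 0.20, edgeR adjusted p of 0.013). These 2 subunits of a single complex thus moved apart under UV-A. Over all genes 13.8% were called higher and 13.7% lower, so such a split does not set the complex apart. Leaving out the irradiated vehicle library of round 2 gave a fitted -0.44 for EIF2B3.

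The 4E-binding proteins moved apart, which the near-even split of calls over all genes does not make particular to them. EIF4EBP2 fell by 0.90 on the log2 scale (SE 0.19, edgeR adjusted p of 0.00073) and EIF4EBP1 rose by 0.61 ± 0.20 (edgeR adjusted p of 0.021). Leaving out the irradiated vehicle library of round 2 gave a fitted 1.21 for EIF4EBP1 and, for EIF4A3, 1.09 in place of 0.59 ± 0.20. The ratio of the EIF4EBP1 libraries of round 2 was 0.43. In eIF3, the subunit gene EIF3H rose by 0.48 ± 0.18 (32.5, 30.5, 37.8 and 43.5 FPKM, edgeR adjusted p of 0.0496). EIF3CL fell by 1.77 (SE 0.59, edgeR adjusted p of 0.026), with counts of 55, 48, 21 and 13, while its near-identical copy EIF3C, with counts of 423, 400, 368 and 247, had -0.49 ± 0.26. EEF2KMT fell by 1.08 (SE 0.41, edgeR adjusted p of 0.049), with 1.66, 2.97, 1.27 and 1.22 FPKM. The vehicle UV-A library of round 2 was the high one, and without it the fit gave -0.11.

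Light in cells holding 1-S was compared within that compound. No member passed in edgeR, DESeq2 or limma, 0 had an unadjusted p under 0.05 in edgeR, and 0% of all genes were called. The log2 ratios ranged from -0.49 to 0.30, with a median of 0.10, and 41 of 52 lay above 0. The interaction of light with 1-S called 0 members, and 0% of all genes, in edgeR, and DESeq2 and limma called 0 members. EIF4EBP1 alone had an unadjusted p under 0.05 in edgeR, with a difference of 0.61 ± 0.27. A fit of the 4 round 2 libraries alone, added after the data were examined, averaged 1-S over both lights. It called 33 members, 16 higher and 17 lower, against 60.1% of all genes. The same fit for 1-SO in round 1 called 0 members and 0% of all genes, with 2 members, EIF1B and EIF2B3, at an unadjusted p under 0.05. For light, averaged over vehicle and compound, it called 0 members in either round. Of all genes it called 4.12% in round 1 and 0.425% in round 2. In each round 5 members had an unadjusted p under 0.05, a count whose share over all genes is not given here. EIF5A was among the 5 in both rounds, at -0.71 ± 0.20 in round 1 and 0.20 ± 0.09 in round 2. In that round 2 fit the 3 EIF4G genes were among the lower ones, at -0.52 ± 0.09 for EIF4G1, -0.48 ± 0.09 for EIF4G2 and -0.28 ± 0.09 for EIF4G3, with edgeR adjusted p values of 3e-07, 1.6e-06 and 0.0037. Its spread comes from the 4 libraries of 1 round, and it takes the 1-S change to be the same in the dark and under UV-A.

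**Figure D4:**
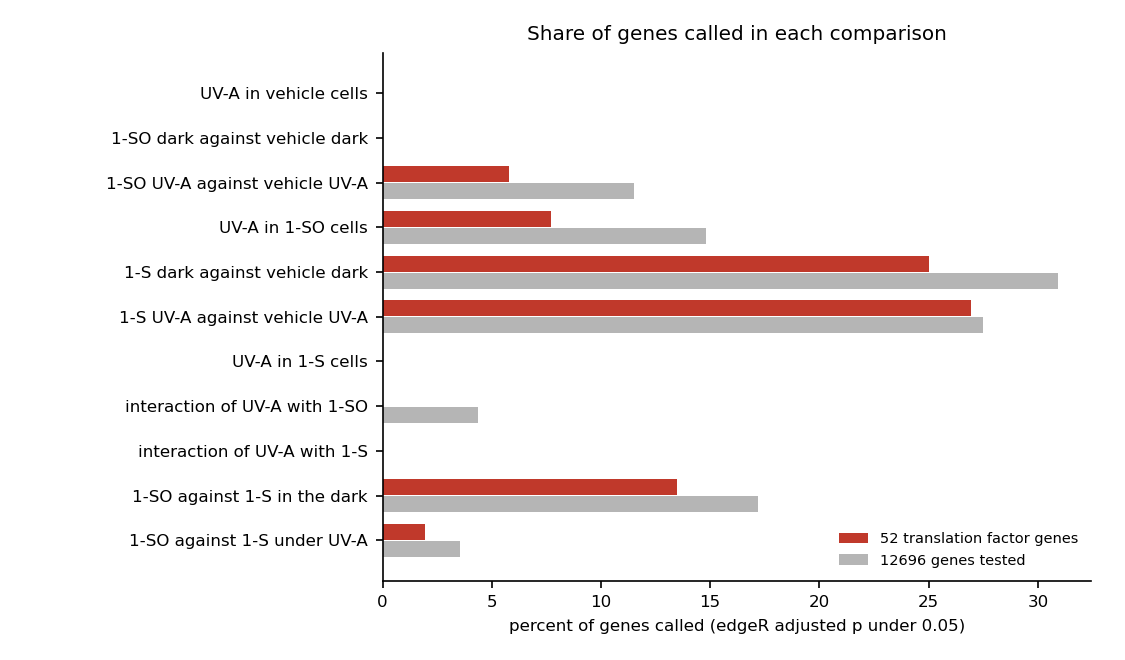
Percent of genes called at an edgeR adjusted p under 0.05 (horizontal axis, from 0) in each of 11 comparisons, in red for the 52 tested members and in grey for all 12696 genes tested. Where any member was called its share lay below that of all genes, as 26.9% beside 27.5% for 1-S UV-A and 5.77% beside 11.5% for 1-SO UV-A.

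The compounds, which differ by the oxo group, were compared at the same dose and time as the difference of their changes against vehicle, once in the dark and once under UV-A. Since each compound has its own round and passage, these differences cannot be told apart from differences between rounds. In the dark 3 members were higher with 1-SO and 4 lower, against 17.2% of all genes tested (8.4% higher and 8.77% lower). The lower ones were EEF1A2 (-1.51 ± 0.34, edgeR adjusted p of 0.0026), EIF1AD (-0.95 ± 0.25, 0.0094), EIF5A2 (-0.82 ± 0.27, 0.034) and EIF1B (-0.73 ± 0.25, 0.045). The higher ones were EIF1AX (0.85 ± 0.24, 0.013), EIF4EBP2 (0.77 ± 0.24, 0.028) and EIF2B3 (0.75 ± 0.26, 0.046), the second number being the edgeR adjusted p. Each of the 7 had been called with 1-S in the dark. With 1-SO in the dark 0% of all genes were called, so the lack of a call there is not particular to them.

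Under UV-A only EEF1A2 differed between the compounds, against 3.55% of all genes tested (1.28% higher and 2.27% lower), at -1.44 ± 0.33 with an edgeR adjusted p of 0.013. Several members that had been called with a compound under UV-A gave differences near 0 with wide intervals. The difference was -0.30 for EIF1B (95% interval -0.81 to 0.21), -0.08 for EIF2B3 (-0.62 to 0.45) and 0.02 for EIF5A2 (-0.52 to 0.56), which was called in neither compound. For EIF4EBP1 it was 0.05 (-0.49 to 0.60), for EIF1 -0.12 (-0.72 to 0.48) and for EIF2S2 -0.09 (-0.63 to 0.44). These intervals hold changes of up to about the size that 1-S itself gave, so likeness is not shown. EIF4EBP2, with 0.75 (0.26 to 1.25) and an edgeR adjusted p of 0.091, and EIF1AD, with -0.74 (-1.25 to -0.23) and 0.1, did not pass. The 3 members called for 1-SO UV-A, EIF1B, EIF4EBP1 and EIF2B3, were all called in the same direction for 1-S UV-A, 100% of the first list and 21.4% of the second. Both comparisons share the fitted vehicle response. The overlap of these calls over all genes was not counted, so it does not set the 3 members apart.

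**Figure D5:**
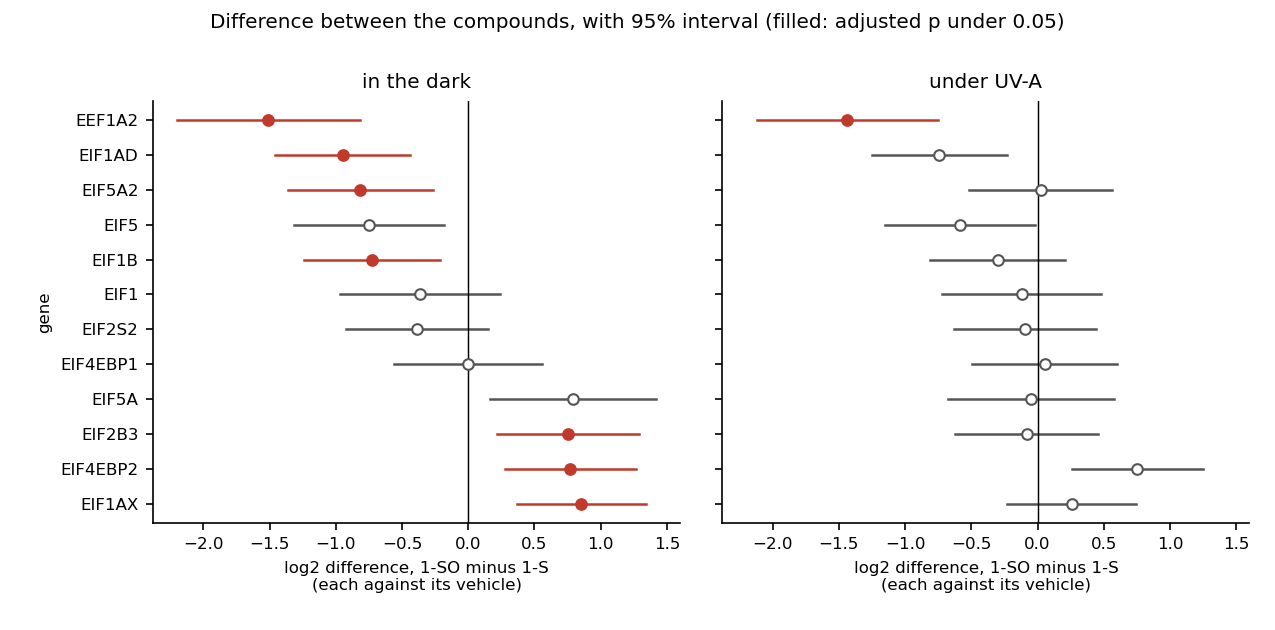
Difference in log2 change between 1-SO and 1-S, each against its vehicle (horizontal axes, with 95% intervals as lines), for 12 members in the dark and under UV-A. Filled points have an edgeR adjusted p under 0.05. In the dark 7 are filled, and under UV-A EEF1A2 alone, at -1.44.

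The members were then divided by the TOP motif. Of the 11 with a pyrimidine start, 1 was called with 1-S in the dark, EIF2S3, as lower, and 0 with 1-S UV-A, where 30.9% and 27.5% of all genes were called. Of the 30 matched members without it, 5 rose and 6 fell with 1-S in the dark, and 6 rose and 2 fell with 1-S UV-A. Members that did not match lay outside both groups, so these counts do not cover them. Among them EEF1A2 was called with 1-S in both lights, and EIF2S2, EIF4EBP1, EIF3H, EIF3CL and EEF2KMT with 1-S UV-A. The median fitted log2 change for 1-S UV-A was 0.21 in the 11 and -0.23 in the 30, with ranges of -0.45 to 0.36 and -0.90 to 0.99 that overlap. For 1-SO UV-A the medians were 0.09 and -0.16. No test was made of this division, and a range widens with the number of genes.

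A list of 41 other genes of the pathway, for termination, poly(A) binding, control of factors, hypusine and diphthamide, and mitochondrial translation, was tested in full. In 1-SO UV-A against vehicle UV-A 3 of them rose and 0 fell, against 4.47% of all genes tested that were higher and 7.05% that were lower. These were MKNK2, a kinase that phosphorylates eIF4E (1.09 ± 0.18, edgeR adjusted p of 0.00011), PDCD4, an inhibitor of eIF4A (0.73 ± 0.18, 0.0086), and PELO, which rescues stalled ribosomes (0.67 ± 0.18, 0.015). With 1-S 7 of the 41 rose and 4 fell in the dark, and 5 rose and 3 fell under UV-A, against the 30.9% and 27.5% of all genes given above. MKNK2 stood at 26.8, 24.4, 26.9 and 55.2 FPKM in round 1 and at 17.2, 15.2, 45.0 and 46.5 in round 2. The irradiated 1-SO library and both 1-S libraries were the high ones. It was the only one of the 41 with a call for the interaction of light with 1-SO, at 1.09 ± 0.23 with an edgeR adjusted p of 0.0052.

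PDCD4 stood at 20.3, 25.2, 21.3 and 41.1 FPKM in round 1 and at 15.7, 13.5, 22.7 and 22.5 in round 2, with log2 changes of 0.60 and 0.55 for 1-S in the dark and under UV-A that passed. ABCE1, the ATPase that splits ribosomes after termination, moved the other way. It stood at 26.2, 28.7, 12.7 and 13.9 FPKM in round 2 and fell by 1.14 and 1.05 on the log2 scale in the dark and under UV-A (SE 0.19 and 0.18, edgeR adjusted p of 3.9e-05 and 9.7e-05). PABPC4, a poly(A)-binding protein, fell by 0.64 and 0.54 in the same comparisons. Of the 8 genes for hypusine and diphthamide, the modified residues of eIF5A and eEF2, DPH3 rose and DPH6 fell with 1-S in both lights, and DPH5 rose under UV-A.

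In the authors' deposited tables, 9 pairwise comparisons of single libraries, 0 members had an adjusted p under 0.05. The smallest in the authors' deposited tables was 0.0697, for EEF1A2 in 1-S UV-A against vehicle UV-A. Over all genes, the largest number with an adjusted p under 0.05 in those tables was 886 of 58676, in the same comparison. At so low a share a count of 0 does not set the members apart. Those tables compare 1 library with 1 other. In the fit used here each compound library has its own term and adds nothing to the spread. That spread comes from the vehicle libraries, with 1 residual degree of freedom, and from the prior shared over genes.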

How the data were processed

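The authors' deposited count tables hold whole read counts per gene in 8 libraries, a column for each, per the file headers. Their FPKM values are deposited beside them, and recomputing them from counts, lengths and totals gave the same values. The authors' deposited comparison tables, each of 2 libraries, give normalized counts (a signal), log2 fold changes and p-values per the file headers. Builds hg19 and hg38 and the tools edgeR 3.16.5, DESeq2, HTSeq 0.6.1, STAR 2.5, STAR-Fusion and TopHat stand in the submitters' processing notes, which do not say which of them served which table. Round 2 coordinates (GRCh38) are printed.

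Genes that reached an FPKM of 1 in 2 or more of the 8 libraries were tested by edgeR 4.0.16 (R 4.3.3) with its two-sided quasi-likelihood test, with Benjamini-Hochberg adjustment over 12696 genes and calls at 0.05. One model held round, light in vehicle cells and a term per compound library, with TMM factors within rounds. It left 1 residual degree of freedom beside 26 prior ones, at a biological coefficient of variation of 12%. Compound libraries are assumed to vary like vehicle libraries. The round is the shared number of the vehicle libraries in the labels, so it was a block, and the fit without it is an alternative. The script was tested on simulated data. Named genes were up to 8 called members per direction and comparison with the largest change, beside 23 genes listed for their role. EIF3H and EIF2B2 fall outside this rule and were named after their values were seen. The members and lists were chosen with earlier results of these data known. Intervals and the limit of a count of 0 cover counting error or the model's error only.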

Additional observations from a re-analysis of the deposited data

Results flagged for a closer look

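These 8 results stand here because the change with 1-SO and the change with 1-S, each against vehicle under the same light, differed by the test of the difference itself (edgeR, adjusted over all genes tested). In the dark the difference, 1-SO minus 1-S on the log2 scale, was -1.51 for EEF1A2, the tissue-restricted form of eEF1A, -0.95 for EIF1AD, -0.82 for EIF5A2 and -0.73 for EIF1B. It was 0.75 for EIF2B3, 0.77 for EIF4EBP2 and 0.85 for EIF1AX. Under UV-A it was -1.44 for EEF1A2. EEF1A2 was the only member called in both lights, and the difference of EIF4EBP2 under UV-A, 0.75, did not pass. Compound, round and passage cannot be told apart in any of them.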

How the results depend on the processing

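No result changed direction under any alternative that was run. DESeq2 called fewer members: 0 in place of 3 for 1-SO UV-A, 0 in place of 4 for UV-A in 1-SO cells, 7 in place of 13 for 1-S dark, 7 in place of 14 for 1-S UV-A, 0 in place of 7 for 1-SO against 1-S in the dark and 0 in place of 1 under UV-A. The fit without the replicate block, that is without the round, called 0 members in each of these 6 comparisons. Counts under the other alternatives (median-of-ratios factors, no filter on low levels, limma-trend on log2(FPKM + 1) or log2(FPKM + 0.1)) lay within 1.5 times the main ones. Of the 40 changes of named members that were called, DESeq2 called 13, median-of-ratios factors 33, no filter 35, limma-trend with the pseudocounts 1 and 0.1 called 33 and 30, and no replicate block 0. Leaving out a vehicle library leaves no residual degree of freedom, so it gives values with no test. Those that moved a called value by over 1.5 times are given in the report beside it. The calls rest on single compound libraries and on 2 vehicle libraries per light, so they hold no measure of how wells of a compound vary. The fits of the 4 libraries of a round were added after the data were examined.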
